A study of Danio rerio with 6 samples.

Results

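The 200 genes described here were those whose counts stood out in a single library, the second of the 3 control libraries, out of 6 RNA-Seq libraries of juvenile zebrafish. They were chosen from the measured values. Counts of each library were divided by the library total and multiplied by 1000000 (counts per 1000000, CPM), and among the 7300 of 32520 genes with at least 50 counts in control replicate 2, the 200 with the largest ratio of (CPM in control replicate 2 + 0.5) to (highest CPM of the other 5 libraries + 0.5) were taken, 2.74% of the genes that could have entered. Their levels in control replicate 2 are therefore given as a description, with no test. Wherever a ratio is given below without further words, it is this one.

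The series compared AB strain zebrafish raised from fertilization to 32 days in 10 µg/L exemestane (EM), a steroid that inactivates aromatase and so blocks the conversion of androgens to estrogens, with fish kept in the solvent alone (DMSO, 10 µL/L). Each group had 3 libraries, and each library held the RNA of the whole bodies of 25 fish from 1 tank, with no genetic modification in either group. A library is thus a pool of all organs and of fish whose sex the labels do not give, and in such bulk samples fewer cells of a type and less RNA per cell cannot be told apart. The replicates are tanks, and the exposure was the only labelled difference between the groups.

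The largest named group among the 200 genes, 51 of them, was of genes of the eye, by a division made after the values were seen. In a list of photoreceptor and retina genes, 29 of 68 genes with at least 50 counts were members. This was 42.6%, against 2.74% of all such genes. The vertebrate retina detects light in rods and cones, whose outer segments are stacks of membrane that carry opsins. A lit opsin activates the G protein transducin, transducin activates the phosphodiesterase PDE6, PDE6 breaks down cyclic GMP, and the cyclic GMP-gated channels close. Kinases, arrestins, RGS proteins and calcium-sensing proteins then shut the cascade off. Photoreceptors pass the signal to bipolar cells at ribbon synapses, and amacrine, horizontal and ganglion cells carry or shape the output. Zebrafish keep duplicates of many of these genes, and most cone genes have a partner used in rods. The pineal organ of fish holds photoreceptors of its own that share much of this machinery.

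The libraries differed in depth. The 6 totals ran from 3169530 counts, in control replicate 2, to 7804654, in EM replicate 1. Control replicate 2 had at least 1 count for 21182 genes, against 24418 to 24966 in the others. Of the 7300 genes, 2489 (34.1%) had a ratio above 1, and the median ratio was 0.75. CPM are shares of a library, and this median depends on the scaling: it was 1.26 with the size factors of DESeq2 and 1.21 with TMM library sizes, a shift of 0.74 and 0.69 on the log2 scale, while the 200 members stayed above 1 under both. The part that depth and the share taken by abundant genes play in the ratios was not tested.

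The 200 members had a median ratio of 4.60, and their ratios ran from 3.43 to 24.4. The median was 7.59 with DESeq2 size factors and 7.36 with TMM library sizes. In 82 of them the ratio was above 5 and in 10 above 10. All 200 had counts in each of the other 5 libraries, with a median over genes of 8.46 CPM against 57.3 CPM in control replicate 2. Together they took 41675 CPM, or 4.17% of the counts, in control replicate 2 and between 6287 and 7587 CPM (0.629 to 0.759%) in the others. Of the sum in control replicate 2, 41.8% came from 5 genes: malat1, tnks1bp1, AK1 and genes without a name. Those without a name had 3863 CPM there, against 644 to 938 in the others, and 2337 CPM, against 263 to 459. None of these was in the gene lists used below. The lists were matched by symbol, so a gene without a name could not enter any of them. The 51 members that were genes of the eye took 9648 CPM there. The 50-count minimum corresponded to 15.8 CPM in this library, and 48 members had fewer than 100 counts there. Across the members, the exact 95% interval of the CPM fold over the highest other library, which covers counting error only and not the choice of the highest genes, had a lower bound of 2.27 or more.

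The limit at 200 fell within a smooth run of values. The last 3 genes inside were si:ch1073-469d17.2 (3.43), si:ch211-214g1.4 (3.43) and tnfaip2a (3.43). The first 3 outside were zgc:171772 (3.43), GPHN (ENSDARG00000089076, 3.43) and guca1c (3.42), the last a guanylate cyclase activator of cones. A second GPHN locus (ENSDARG00000100851), for gephyrin, which anchors inhibitory receptors, was inside.

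**Figure D1:**
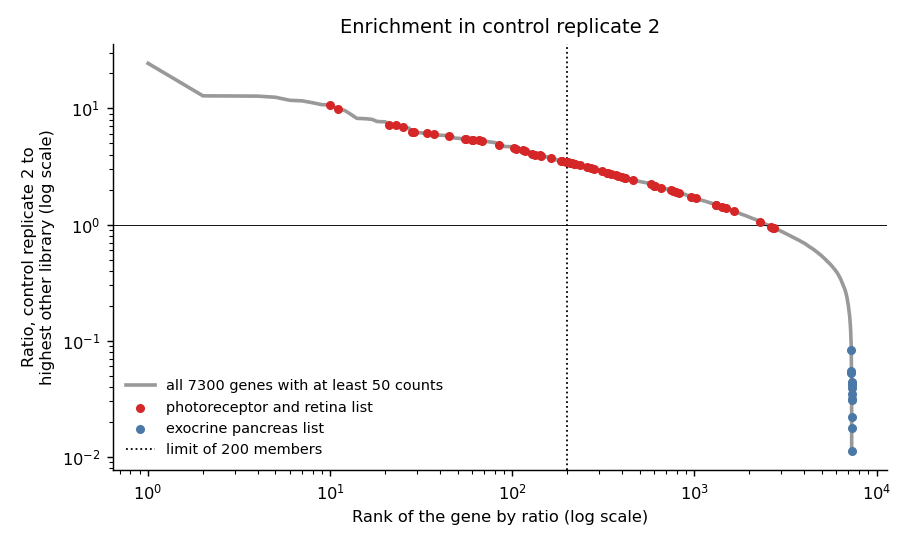
Ratio of control replicate 2 to the highest other library (CPM with 0.5 added; log scale) against the rank of the gene by that ratio (log scale) for the 7300 genes with at least 50 counts in control replicate 2 (grey line), with the genes of the photoreceptor and retina list in red and of the exocrine pancreas list in blue. The dotted line is the limit of 200 members: 29 of 68 retina genes lay to its left, and the 13 pancreas genes sat at the other end, at ratios of 0.0836 or less.

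Among 32 lists of tissue, cell type and process genes, the photoreceptor and retina list contributed the most members, 29 of its 68 genes with at least 50 counts (42.6%, against 2.74% of all such genes). The median ratio of the 68 genes was 3.32, against 0.75 for all 7300, and 65 of the 68 were above 1. The 3 that were not were rlbp1a (0.94), which binds retinaldehyde in the support cells of the retina, a second CRX locus (ENSDARG00000043483, 0.96) and CNGA3 (ENSDARG00000070726, 0.94), a cone channel subunit. The summed level of the 107 genes of the list was 18070 CPM in control replicate 2 and between 3877 and 5584 CPM in the other 5 libraries, so control replicate 2 lay above all other libraries of both groups. The lists and the members were both chosen with results of these data known, so the count describes these libraries and is not independent evidence.

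The other lists held few members. The brain and neurons list held 4 of 57, with a median ratio of 1.28, and its sum was 10831 CPM in control replicate 2 against 6261 to 7331. The lens list held 2 of 47, with a median of 0.83, the ribosomal protein list 2 of 89, with a median of 1.94, and the endocrine pancreas list 1 of 8, which was PAX6. The hypoxia and glycolysis list held ndrg1b (3.83) and the proteasome and ubiquitin list 1 of its 48 genes, which is also in the ribosomal list. The remaining lists held none. In all, 38 members were in any list and 162 in none.

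Lists without members differed widely from each other. The mitochondrially encoded genes had a median ratio of 1.98 over 12 genes, with MT-ND6 at 0.0939 as the single one below 1, and skeletal muscle genes 1.11 over 76. The summed level of the muscle list was 168358 CPM in control replicate 2 and at most 99893 CPM elsewhere. At the low end, the median was 0.0394 for 13 exocrine pancreas genes, 0.196 for 33 epidermis genes, 0.223 for 26 notochord and connective tissue genes, 0.281 for 48 liver genes and 0.293 for 21 cartilage and bone genes, and these 5 medians stayed below 1 under both other scalings. The medians of the lens, testis, cilia, nuclear oxidative phosphorylation, hypoxia and autophagy lists crossed 1 under both, and that of the lipid list (0.62) with the DESeq2 size factors alone (1.02). The part that the lower share of these other tissues played in the level of the 200 genes was not tested.

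**Figure D2:**
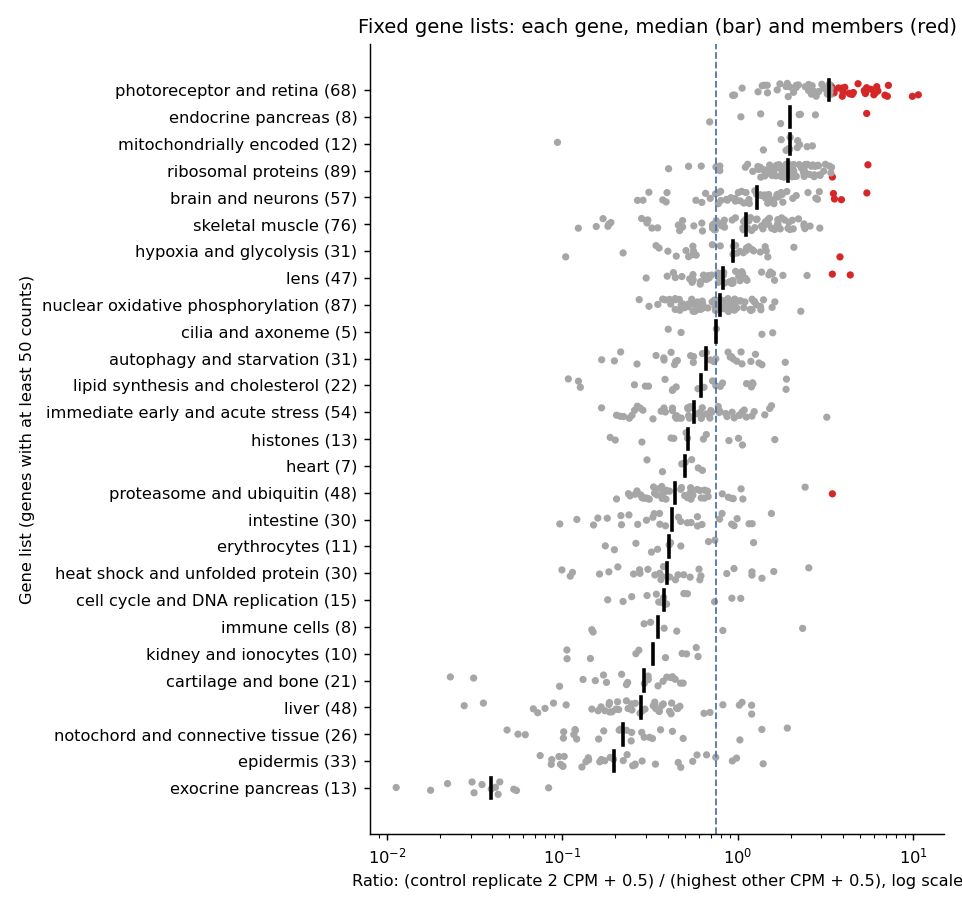
Ratio of control replicate 2 to the highest other library (CPM with 0.5 added; log scale) for each gene with at least 50 counts, by gene list (number of genes in brackets). Red points are members, grey points are other genes, black bars are medians and the dashed line is the median of all 7300 genes, 0.75; the photoreceptor and retina list lies farthest to the right, with a median of 3.32, and the exocrine pancreas list farthest to the left.

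The members of the visual cascade are given next in the order of the cascade, with the CPM of each library. Many symbols are in the capitals of the human gene, and where a symbol covers several zebrafish loci the identifier is added. Where such loci are similar in sequence, which was not measured here, the handling of shared reads could make the counts of single loci uncertain. Of 9 opsin genes (symbols in opn) with at least 50 counts, 5 were members. The red cone opsin opn1lw2 had 301 CPM in control replicate 2, against 39.4 in control replicate 1, 29.6 in control replicate 3 and 45.7, 46.9 and 55.9 in the 3 EM libraries, here and below in the order of their numbers. Its tandem neighbour opn1lw1 had 83.6 CPM, against 11.3 and 6.28 in the controls and 9.74, 5.51 and 5.18 in the EM libraries. The green cone opsin opn1mw2 had 219 CPM, against 36.4 and 16.8 in the controls and 42.4, 54.6 and 38.7 in the EM libraries. The other controls and the EM libraries overlapped in opn1lw1. In opn1lw2 and opn1mw2 the EM libraries lay above both controls, by differences that did not pass the exposure test given at the end. How many of all genes separate in this way was not counted.

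The other 2 opsins were not cone pigments. OPN4 (ENSDARG00000007553), a melanopsin, had 118 CPM against 13.3 to 26.1 in the other 5 libraries. The non-visual opsin opn6b had the highest ratio of the family, 8.87, from 100 counts (31.6 CPM) against 0.897 to 3.11 CPM. Further opsins lay outside the 200 but above 1: the blue cone opsin opn1sw2 had a ratio of 1.98 and the green cone opsins opn1mw1 and opn1mw3 3.02 and 3.08.

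The alpha subunits of transducin of both cell types and some of its other subunits were members. GNAT2, the cone alpha subunit, had 1320 CPM (4185 counts) in control replicate 2, against 252 and 174 in the other controls and 254, 302 and 231 in the EM libraries. GNAT1, the rod alpha subunit, had 881 CPM, against 162 and 87.0 in the controls and 132, 167 and 145 in the EM libraries. The cone beta subunit gnb3b had 705 CPM, against 85.4 and 64.6 in the controls and 111, 113 and 91.4 in the EM libraries. Both loci named GNGT2, for the cone gamma subunit, were also members, with ratios of 9.91 (ENSDARG00000010680) and 4.57 (ENSDARG00000103543). The first of them was the 11th of the 200 by ratio. The rod beta subunits gnb1a and gnb1b, which are also used outside the eye, had ratios of 2.66 and 1.41 and were not members, nor was a second cone beta locus, GNB3 (ENSDARG00000004358, 2.54).

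Next in the cascade stand PDE6 and the channels. The cone inhibitory subunit pde6ha had 1194 CPM (3783 counts), against 119 and 79.5 in the controls and 112, 208 and 170.1 in the EM libraries, a ratio of 5.74. The rod inhibitory subunit PDE6G had 315 CPM and a ratio of 3.93, and the 2 loci named PDE6B, for a rod catalytic subunit, had 230.3 CPM against 33.3 to 50.8 (ENSDARG00000011671) and 205 CPM against 32.8 to 49.8 (ENSDARG00000000380). The cone catalytic subunit PDE6C had a ratio of 2.90 and the second cone inhibitory subunit PDE6H 1.48. With pde5aa (4.60), a cyclic GMP phosphodiesterase that is also found outside the eye, 5 of 14 genes with symbols in pde were members. Of the channel subunits, the rod genes CNGA1 (4.32 for ENSDARG00000029898 and 3.95 for ENSDARG00000012125) and cngb1a (5.42) were members. The second rod beta gene cngb1b (2.76) was not, nor were the cone genes cngb3.1 (2.43) and CNGA3 (ENSDARG00000070726, 0.94). Of the cyclases that restore cyclic GMP, gucy2f had 67.5 CPM against 10.5 to 19.3 and was near the limit at 3.44. Another, gucy2d, had 98.4 CPM against 29.9 to 45.3, a ratio of 2.16, and was not a member.

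**Figure D3:**
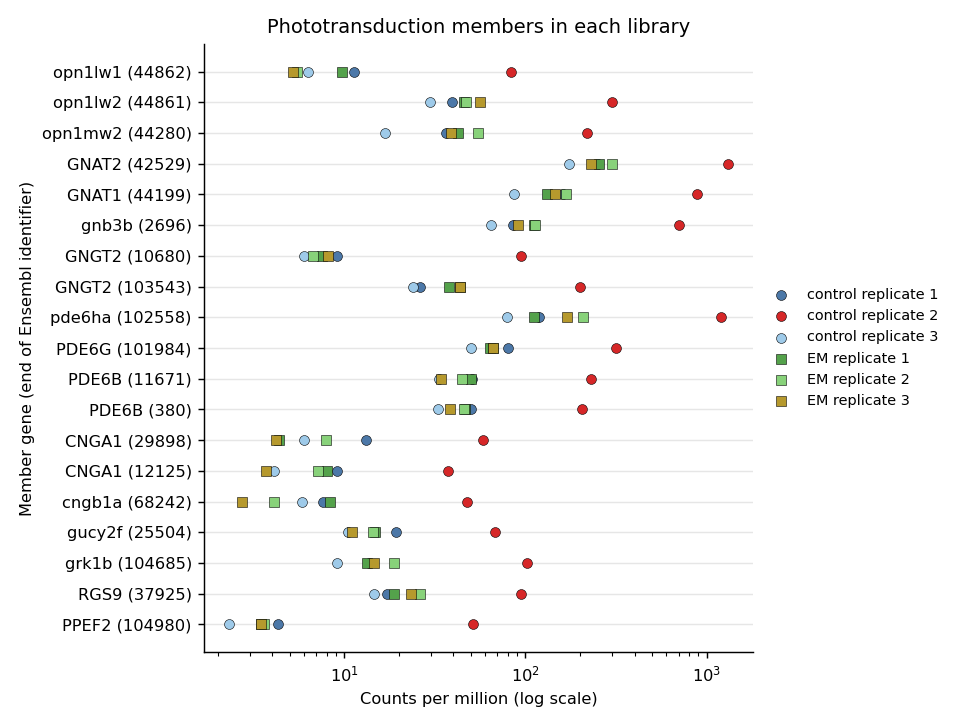
Level in CPM (log scale) of 19 members that act in phototransduction, in each of the 6 libraries (circles, control; squares, EM), with the end of the Ensembl identifier in brackets. Control replicate 2 (red) lies to the right of the other 5 libraries in every row, as the rule requires, and the smallest ratio among the 19 is 3.44, for gucy2f.

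Genes that end the light response were members as well. PPEF2, a calcium-binding phosphatase of photoreceptors, had 51.1 CPM, against 4.32 and 2.32 in the controls and 3.46, 3.59 and 3.45 in the EM libraries, a ratio of 10.7. The cone opsin kinase grk1b had 102 CPM against 9.15 to 18.9, while another one, GRK7 (ENSDARG00000020602), had a ratio of 1.31 and was not a member. RGS9, which speeds the return of transducin to rest, had ratios of 3.56 (ENSDARG00000037925) and 3.60 (ENSDARG00000045156), and its anchor rgs9bp (ENSDARG00000009466) 4.43 from 66 counts, so that 3 of 13 genes with symbols in rgs were members. A second anchor locus, RGS9BP (ENSDARG00000086756), had a ratio of 0.94, the only one below 1 among the 13 genes of this group with at least 50 counts, and GNB5 (ENSDARG00000055377), a partner of RGS9, had 1.65. Phosducin (PDC, ENSDARG00000011886), which binds the beta and gamma subunits of transducin, had 4.34. The arrestins were lower in the ranking: 1.68 for saga and 2.80 for sagb, the rod forms, and 1.92 and 1.74 for the 2 ARR3 loci of cones.

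Structural proteins of the outer segment and its cilium gave the largest number, 15 of 27 genes with at least 50 counts. The disc rim proteins were a compact set. The tetraspanin rom1a had 381 CPM, against 52.3 and 30.2 in the controls and 44.2, 35.2 and 36.2 in the EM libraries, and ROM1 had 245 CPM against 22.1 to 40.7. Their partner PRPH2, peripherin, had 352 CPM against 36.2 to 55.5 (ENSDARG00000038018) and 285 CPM against 27.7 to 46.4 (ENSDARG00000014840), and with prph2la (4.69) 3 of 4 genes with symbols in prph were members. Of genes for transport through the connecting cilium, arl3l2 (6.09), rpgrip1 (5.40), WHRN (ENSDARG00000075362, 5.15), tulp1a (4.85), arl3l1 (4.05) and unc119c (4.02) were members. FAM161A (3.54) and rp1l1a (3.91), proteins of the ciliary microtubules, cdhr1a (4.02), a cadherin at the base of the discs, and elovl4b (4.48), which makes very long chain fatty acids of photoreceptor membranes, completed the set. The general list of motile cilia and axoneme matched 93 genes, of which 5 had at least 50 counts, with a median of 0.76. None of the 5 was a member, which is near the share of 2.74% over all such genes.

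Transcription factors of the eye followed. The nuclear receptor rorcb had 151 CPM, against 14.6 and 11.3 in the controls and 15.2, 14.4 and 8.38 in the EM libraries, a ratio of 9.61. The retinal homeobox genes rx1 and rx2 had 6.91 and 5.35, and crx, which drives photoreceptor genes, 188 CPM against 18.5 to 52.8. PAX6 (ENSDARG00000103379), an eye and brain factor that is also used in pancreatic islets, had 265 CPM against 26.1 to 48.4. SIX6 (3.53) and samd7 (3.78) were members as well. The transcription factor group counted below is narrower and held 5 members. OTX2, THRB and six7, which act in the same cells, had ratios between 2.54 and 2.99 and were not members.

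The genes of the eye were also divided into 10 groups by cell type or role, a division made after the values were seen. The median ratio was 3.60 for 16 rod phototransduction genes with at least 50 counts (9 members), 3.22 for 22 cone genes (9 members) and 3.37 for 13 genes of shut-off and calcium feedback (5 members). It was 3.91 for the outer segment and cilium group and 3.26 for 10 transcription factors (5 members). Genes of the ribbon synapse had 2.31 (3 of 12 members), bipolar cell genes 2.41 (4 of 12), and genes of amacrine, horizontal and ganglion cells 1.53 (1 of 12). For the 7 genes of Müller glia, the support cells of the retina, the median was 0.43, with no member and 0 genes above 1. This median rose to 0.73 with DESeq2 size factors and 0.70 with TMM library sizes, with 3 of the 7 above 1 under each. A ratio below 1 means below the highest of the other 5 libraries, and not below all of them. None of the 18 genes of the retinal pigment epithelium and of melanin synthesis reached 50 counts, and their summed level was 42.9 CPM in control replicate 2 against 127.9 to 242 CPM in the others. RPE65 (ENSDARG00000007480), the isomerase of the visual cycle, had 4.42 CPM against 28.1 to 67.0.

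The 50-count minimum removes the genes that were low in control replicate 2, so the same count was taken over all genes detected. A ratio above 1 was found for 18 of 18 rod genes, 23 of 26 cone genes, 14 of 16 shut-off genes, 31 of 34 outer segment genes and 10 of 12 transcription factors. It was found for 14 of 23 ribbon synapse genes, 14 of 17 bipolar genes, 12 of 24 amacrine, horizontal and ganglion cell genes, 1 of 13 Müller glia genes and 1 of 18 pigment epithelium genes. Many of the synapse genes below 1, such as SLC17A7 and CPLX3, had under 50 counts in control replicate 2. These are counts over CPM, with no test. The share above 1 over all detected genes was not counted, so they have no background to be read against.

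**Figure D4:**
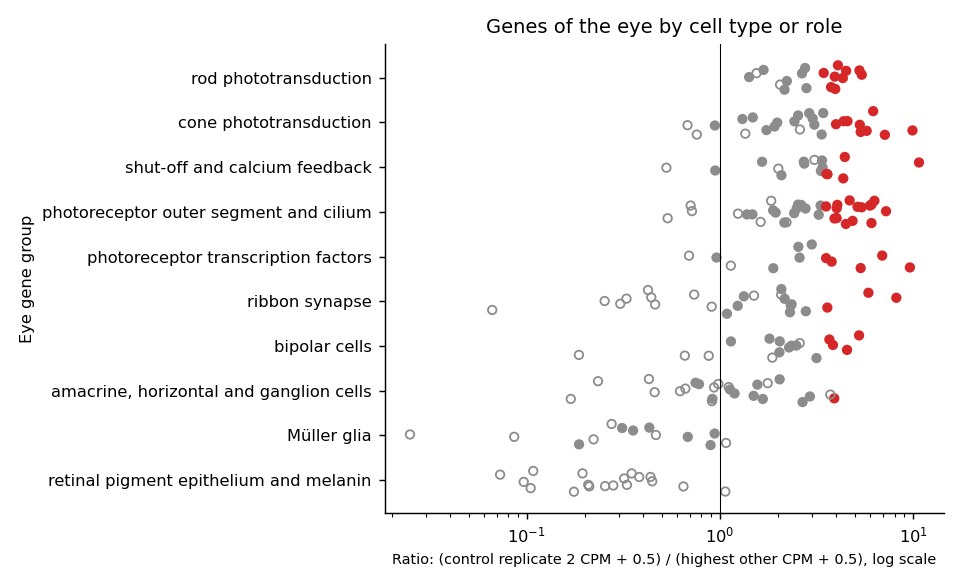
Ratio of control replicate 2 to the highest other library (CPM with 0.5 added; log scale) for each detected gene of 10 eye groups. Red points are members, filled grey points other genes with at least 50 counts and open points genes with fewer; medians of the genes with at least 50 counts run from 3.91 for the outer segment and cilium group to 0.43 for Müller glia, and the pigment epithelium genes are all open points with 17 of 18 below 1.

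At the synapse and behind it, the members were calcium-binding proteins, channels and receptors. CABP4, which tunes the calcium channel of the photoreceptor terminal, had 29.0 CPM (92 counts) against 1.64 to 3.11, a ratio of 8.18. The channel subunit cacna2d4a (5.86, 54 counts) and the release protein rims2b (3.59) act at the same terminal. With cabp2a (3.84) and cabp5a (3.68), 3 of 5 genes with symbols in cabp were members. TRPM1 (ENSDARG00000011259, 5.24) and trpm1b (4.54) encode the cation channel that opens in ON bipolar cells, and trpm1b had 121 CPM against 19.5 to 26.1. SLC32A1, which loads inhibitory transmitter into vesicles of amacrine, horizontal and many brain neurons, had 266 CPM, against 66.3 and 49.2 in the controls and 67.8, 43.1 and 39.7 in the EM libraries.

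Several members were receptors or transporters of glutamate, and other genes of that kind were not members: the vesicular transporter SLC17A7 had ratios of 0.253 (ENSDARG00000016480) and 0.328 (ENSDARG00000090106), and the glial transporter SLC1A3 0.0249 (ENSDARG00000043148) and 0.0861 (ENSDARG00000104431), all under 50 counts in control replicate 2. The AMPA receptor subunit gria4a had 173 CPM (547 counts), against 20.6 and 18.3 in the controls and 14.6, 16.8 and 16.3 in the EM libraries, a ratio of 8.20. Both GRIA3 loci were members (4.23 for ENSDARG00000037498 and 3.59 for ENSDARG00000032737), so 3 of 7 genes with symbols in gria were. The NMDA receptor subunit GRIN1 had 898 CPM against 112 to 164, and the kainate receptor subunits GRIK2 (ENSDARG00000113771) and GRIK1 (ENSDARG00000069139) had ratios of 4.80 and 3.76. The glutamate transporter slc1a8a had 47.0 CPM against 1.41 to 3.59, a ratio of 11.6. With slc7a11 (3.94) and SLC32A1, the members held 3 of 111 genes with symbols in slc, near the 2.74% of all genes with the minimum count. The median ratio of the 111 genes was 0.74, against 0.75 for all 7300.

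The brain list added nrxn1a (3.51) and CBLN2 (ENSDARG00000077151, 3.56), which link the membranes of a synapse. The forebrain transcription factors FEZF2 (ENSDARG00000070677) and foxg1b had ratios of 7.73 and 4.14. General synaptic genes such as SNAP91 (ENSDARG00000098809, 3.79), syngap1b (3.81) and SCAMP5 (ENSDARG00000040274, 4.61) were members too. In the brain list as a whole 37 of 57 genes had a ratio above 1, against 34.1% of all genes with the minimum count, and the lowest had 0.268.

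A few members belong to light-dependent timing. Both aanat genes, which make the precursor of melatonin, were members: aanat2, of the pineal organ, had a ratio of 5.15 from 50 counts, and aanat1, of the retina, 3.65 from 58 counts. The cryptochromes are flavoproteins related to DNA photolyase. The level of cry3a was 1192 CPM, against 234 and 161 in the controls and 172, 173 and 175 in the EM libraries, and cry3b had 114 CPM against 12.2 to 21.1. The time of day at which each pool was taken is not given in the sources used here.

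Few members were genes of the front of the eye, and KERA was picked after its value was seen. KERA (ENSDARG00000056938), keratocan of the corneal stroma, had 67.5 CPM against 6.96 to 12.8. The lens crystallins CRYAB (ENSDARG00000042621, 4.38) and crygm2f (3.46) were members, 2 of the 47 lens genes with at least 50 counts (4.26%, against 2.74% of all such genes). Of the 47, 16 were above 1, near the 34.1% of all such genes. The summed level of the lens list was 5567 CPM in control replicate 2, within the 3079 to 5990 CPM of the other libraries. These lens values depend on the scaling. With DESeq2 size factors 38 of the 47 were above 1, against 4591 of all 7300 genes. With TMM library sizes 36 were, against 4462. The sum was not taken under these scalings.

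Of the 20 genes with the highest ratios, 4 were in the eye groups, and the others included the opsin opn6b and genes with clone names or no name, whose role the tables do not give. The first, si:ch211-190k17.19, a clone-derived name, had 182 CPM (577 counts), against 6.98 and 1.37 in the controls and 0.897, 2.87 and 2.46 in the EM libraries, a ratio of 24.4, or 54.1 without control replicate 1. The second, tnks1bp1, whose human counterpart binds the enzyme tankyrase, had 2526 CPM (8006 counts), against 197 and 65.4 in the controls and 57.4, 91.2 and 96.9 in the EM libraries. In both, control replicate 1 was the next highest library. Apart from a gene with no name, next came slc1a8a and 5 further clone names, si:dkey-27k4.4 (12.7), si:ch211-229g11.5 (12.5), si:ch73-22o18.1 (11.7), si:dkey-27n6.9 (11.2) and si:ch1073-358o18.3 (10.8), from 67 to 179 counts each.

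Other members at this end were in none of the eye groups. GNG11 (ENSDARG00000035798), a G protein gamma subunit, had 517 CPM, against 55.8 and 40.4 in the controls and 60.6, 63.2 and 56.7 in the EM libraries. The threonine dehydrogenase gene tdh2 had 272 CPM against 22.3 to 34.9. The genes ms4a17a.8 (8.03), trim110 (7.68), si:ch211-23l10.3 (7.15), si:ch211-210k13.6 (6.99) and si:dkey-23o4.6 (6.82) completed the 25 named members with the highest ratios.

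Some members were expressed at a high level in all libraries. The long noncoding RNA malat1, which is retained in the nucleus, had 6468 CPM (20502 counts), against 1304 and 1520 in the controls and 1179, 1293 and 938 in the EM libraries. AK1 (ENSDARG00000001950), the adenylate kinase of muscle and other tissues that balances adenine nucleotides, had 2227 CPM against 390.2 to 552. The nuclear splicing factors, RBM5 (ENSDARG00000098280) and rbm25a, had 1092 CPM against 246 to 313 and 309 CPM against 32.2 to 72.8. The ribosomal protein gene rplp2 had 940.2 CPM, against 166 and 159 in the controls and 162, 169.7 and 167 in the EM libraries, a ratio of 5.53. The ribosomal list, found by the start of the symbol and including 5 rps6k kinase genes, had 83 of 89 genes above 1, but only 2 were members, rplp2 among them, a number that ran from 1 to 7 under other settings of the rule.

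The division of the whole set was as follows. Of the 200, 51 (25.5%) were in the eye groups, a further 10 were in other lists or in the photoreceptor list only, 45 had clone or placeholder names, 13 had no name in the tables used, and 81 had other symbols. Names in si: or zgc: were carried by 44 of the 200 members and by 6.36% of the 7300 genes, and the share of genes without a name was 6.50% in the members and 0.932% in the 7300. The median ratio was 4.54 in the 51 and 4.68 in the other 149. Members named above by their role in the eye, synapse, timing, cornea or nucleus were picked after their values were seen, except where they were in the lists, the families or the 25 highest.

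The other 5 libraries also varied among themselves. The standard deviation of log2 CPM over the 5 had a median of 0.34 in the members and 0.26 in the other 7100 genes, though members have lower counts there. The rule used the highest of the 5, which was EM replicate 2 for 70 members, control replicate 1 for 69, EM replicate 1 for 30, EM replicate 3 for 19 and control replicate 3 for 12. The lowest of the 5 was control replicate 3 for 87 members and EM replicate 3 for 67. In the 51 eye members it was control replicate 3 for 33, and their summed level was 1082 CPM there, 1612 CPM in control replicate 1, and 1565, 1750.3 and 1430 CPM in EM replicates 1 to 3, against 9648 CPM in control replicate 2.

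The exposure was compared without control replicate 2, the library in which the genes were picked to be high. The comparison is not free of the choice, because the rule also used the highest of the other 5 libraries and so took fewer genes that were high in any of them, and the values of the members are given as a description. The 3 EM libraries were set against control replicates 1 and 3 for all genes with DESeq2 (Wald test, Benjamini-Hochberg adjusted p under 0.05). Of 22930 genes tested, 274 were called, a background of 1.19% (0.353% higher and 0.842% lower in EM), and of the 200 members 0 were called. At an unadjusted p under 0.05 in DESeq2 there were 3 members (1.5%), against 4.92% of all genes and 4.41% of the 7300 with the minimum count. The 274 genes fell to 123 without control replicate 1 and to 178 without EM replicate 2 and rose to 779 without EM replicate 1, with 0 members in each. With the quasi-likelihood test of edgeR, 0 of 192 members were called, on a background of 127 of 20784 genes or 0.611% (0.0192% higher and 0.592% lower). That test gave 4 members (2.08%) an unadjusted p under 0.05, against 6.62% of all genes. Among all 7300 genes with the minimum count, DESeq2 called 39. Since 1.19% of 200 genes is a small number, a count of 0 is near the background.

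The log2 fold changes of EM against the 2 controls had a median of -0.03 in the members, with quartiles of -0.24 and 0.20, and 91 were above 0 and 109 below. Over all genes tested the median was 0.01. The 51 eye members had a median of 0.02, with 27 above 0. The standard error of a member's log2 fold change had a median of 0.45, so a change of that size could not be told from the spread of the tanks. In 156 members the estimate was within 0.5 of 0 and in 6 it was beyond 1 in either direction.

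The smallest adjusted p belonged to si:ch211-63p21.8, with 13.5 and 12.6 CPM in the 2 controls and 6.15, 5.98 and 3.70 CPM in the EM libraries, a log2 fold change of -1.34 ± 0.43 (SE, DESeq2 adjusted p = 0.107). The 2 groups did not overlap in this gene, but the test was not passed. GNGT2 (ENSDARG00000103543) had 24.03 and 26.1 CPM in control replicates 3 and 1 and 37.8, 43.6 and 43.6 in the EM libraries, a log2 fold change of 0.68 ± 0.26 (SE, DESeq2 adjusted p = 0.311). For GNAT2 the log2 fold change was 0.24 ± 0.27 (SE) and for GNAT1 0.19 ± 0.34 (SE), with overlapping groups. The photoreceptor and retina list as a whole had a median log2 fold change of 0.13 over 105 tested genes, with 68 above 0 and 37 below. Over all genes tested, 11679 were above 0 and 11251 below. The summed level of the list was 5196 CPM in control replicate 1, within the 4778 to 5584 CPM of the EM libraries, and 3877 CPM in control replicate 3. Genes measured in the same pools are not independent observations. In this list DESeq2 called 0 genes and edgeR called 0. At an unadjusted p under 0.05 in DESeq2 there were 4 (3.81%), against 4.92% of all genes.

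With all 6 libraries, as in the design of the study, the same members looked different, because the control mean then held the library that chose them. Their log2 fold changes of EM against control all lay below 0, with a median of -2.07 and a range of -5.69 to -1.42. Nevertheless 1 of 162 members with an adjusted p passed it in DESeq2, si:ch211-63p21.8, lower in EM, on a background of 1.08% of 23999 genes (0.421% higher and 0.663% lower). The other 38 members received no p, since DESeq2 withholds it where 1 library deviates strongly from its group. With edgeR 0 of 191 members and 0 of 19264 genes were called. An unadjusted p under 0.05 was given to 141 of the 162 members in DESeq2 (87%, against 6.17% of all genes). In edgeR it was given to 60 of the 191 (31.4%, against 3.94%). These values describe the effect of 1 library on the contrast, and nothing is read from them about the exposure.

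**Figure D5:**
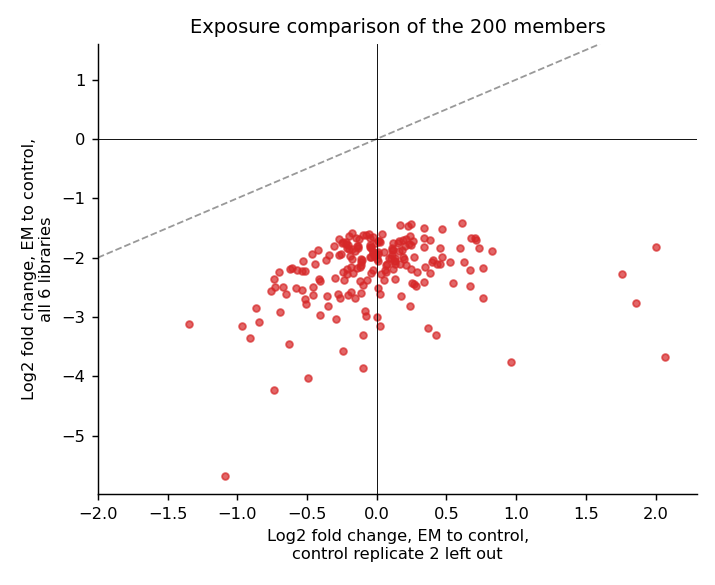
Log2 fold change of EM against control (DESeq2) for each of the 200 members, with control replicate 2 left out (horizontal axis) and with all 6 libraries (vertical axis); the dashed line marks equal values. Without control replicate 2 the points lie on both sides of 0 (median -0.03), and with it all lie below 0 (median -2.07).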

How the data were processed

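Whole-body RNA-Seq libraries (3 control, 3 EM) were analysed. According to the processing notes of the submitters, reads were checked with FastQC 0.11.8, aligned to GRCz11 with HISAT2 2.0.5 and SAMtools 1.5 and counted per gene with HTSeq 0.9.1. The methods of the study add that SAMtools was used to take out PCR duplicates before counting. The effect of that step on libraries of different depth was not tested. The deposited file holds raw counts per gene made by the authors, with no normalization. Library totals were 3169530 to 7804654 counts.

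CPM, ratios and medians were computed with Python 3.11.15 and pandas 2.3.3. The exposure was tested with DESeq2 1.42.0, as in the methods of the study, with edgeR 4.0.16 (TMM, filterByExpr) as an alternative; both recovered changed genes in simulated counts. Leaving out libraries, other scalings, pseudocounts, count minimums and a replicate block were tried. Same-group libraries differed by more than counting noise.

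The members and lists were chosen with earlier results of these data known. Of 32520 identifiers, 29270 were named, and the reference table of names had a symbol for 29201. The tables of the study gave a symbol for 4388 identifiers, which was used where the reference had none or one in capitals. Lists were matched to symbols regardless of case, and a symbol in capitals also to its zebrafish duplicates, which is wider than the exact match that was planned. The rule for named genes took the 25 members with the highest ratio that had a symbol, up to 8 members of each list by ratio, the 3 genes on each side of the limit, members called in the exposure comparison, and families with 3 or more members, up to 5 each. Intervals of a CPM fold are exact conditional binomial 95% intervals. The replicates are separate tanks, so p-values measure the spread between tanks. All columns of the deposited table were mapped to samples. A few genes are not reported here by name.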

Additional observations from a re-analysis of the deposited data

How the results depend on the processing

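The set of 200 genes depended moderately on its settings. It shared 192 genes with the sets found with DESeq2 size factors and with TMM library sizes, 167 with a pseudocount of 5 CPM, 187 with all libraries thinned to the smallest total, 168 and 152 with minimums of 20 and 100 counts, and 176 to 196 when each of the other 5 libraries was left out. The photoreceptor and retina list had 27 to 35 genes among the 200 under these settings, against 29. The ratios of the members named by the rule had a maximum of 54.1 without control replicate 1, against 24.4.

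Without control replicate 2, DESeq2 called 274 genes, against 127 with edgeR and 87 with at least 10 counts in 3 libraries. Leaving out 1 library gave 123 (control replicate 1) to 779 (EM replicate 1), where without control replicate 1 or 3 a lone control was assumed to vary like the EM libraries. Of the members 0 were called in each of these, and 1 with all 6 libraries. With all 6 libraries the count was 260, against 0 with edgeR, 90 with the 10-count minimum and 126 to 542 on leaving out a library (129 without control replicate 1, 542 without EM replicate 1, 127 without EM replicate 2 and 126 without EM replicate 3).

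Deviations of same-numbered libraries from their group means correlated at -0.15, 0.21 and -0.20. The control mean held control replicate 2, which shifts the deviations of all 3 controls. These values therefore cannot decide whether replicate numbers paired the tanks. With a replicate block DESeq2 called 87 genes without control replicate 2 and 174 with it. The block in edgeR, chosen after the data were seen, called 160 and 48. No block called a member without control replicate 2, and members called by a block in all 6 libraries were not counted. The cause of these shifts was not tested. Depth limits what can be said of the 48 members with under 100 counts.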
